A study of Mus musculus with 9 samples.

Results

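The genes described here are 10 genes by which astrocytes of the mouse brain are usually recognised, chosen as a list of symbols and found in the deposited table by their RefSeq identifiers. All 10 were present, among 23798 genes in the table, through 26 transcripts. Astrocytes take up the glutamate that neurons release, convert it to glutamine, buffer extracellular potassium and move water at their endfeet on blood vessels. In the list, Slc1a2 (GLT-1) and Slc1a3 (GLAST) are the glutamate transporters and Glul is glutamine synthetase, which makes glutamine from the glutamate taken up. Aqp4 is the endfoot water channel and Kcnj10 (Kir4.1) the potassium channel. Aldh1l1, a folate enzyme, and Aldoc, a glycolytic aldolase, are metabolic markers. Gfap is the intermediate filament of astrocytes, Sox9 a transcription factor needed for making glia and kept on in astrocytes, and Cldn10 a claudin.

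RNA came from 9 mouse brain samples in 3 groups of 3: mice of the genotype labelled TG given NM-101, TG mice given placebo, and wild-type (WT) mice given placebo. The title names a-synuclein made by neurons and its effects in oligodendrocytes, but the labels do not spell out the transgene, what NM-101 is, its dose, or the age of the mice. RNA was taken with an FFPE kit, made for fixed tissue, and libraries were made with QuantSeq, which reads transcripts near their 3' end. The labels call the cell type oligodendrocyte, and they do not say whether samples are separate animals, so p-values cover only how far these samples spread, and that spread may be technical.

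The table holds whole counts for the WT libraries, with totals from 10612290 to 14041951, and log2 values for the TG libraries, read as log2(FPKM + 1). FPKM is a fragment count scaled to transcript length and library size. Steps in the low TG values imply about 9140000 to 12660000 reads in the NM-101 libraries and 10180000 to 12940000 in the TG placebo libraries. The astrocyte genes were far from absent in samples labelled oligodendrocyte. Over the 6 TG libraries, Glul stood at the 99.7th percentile of the 12699 genes tested, Aldoc at the 99.0th, Slc1a2 at the 98.4th and Sox9, the lowest of the 10, at the 65.8th. The 10 genes together summed to 8895.8, 9603.2 and 8519.5 CPM (counts scaled to the library total) in WT replicates 1, 2 and 3. A list of 12 oligodendrocyte markers summed to 8485.1, 6189.6 and 10092.9, and a list of 15 neuron markers 15186.4, 14524.0 and 15274.6 CPM. In such bulk samples, fewer cells of a type and less RNA per cell cannot be told apart.

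In the WT libraries all 10 genes were well covered. Slc1a2 had 38875, 55291 and 39113 counts, or 3641 ± 308 CPM (SD, n = 3), and Glul had 25263, 36076 and 27629 counts, or 2432 ± 120 CPM. Aldoc averaged 1217 ± 114 CPM, Slc1a3 672 ± 41.6 CPM and Gfap 511 ± 84.4 CPM. The channels followed, Aqp4 at 192 ± 13.2 CPM and Kcnj10 at 178 ± 18.4 CPM. Aldh1l1 averaged 59.9 ± 5.02 CPM, Sox9 58.4 CPM (its samples follow) and Cldn10 45.2 ± 6.06 CPM. QuantSeq reads near the 3' end, so these counts carry no correction for transcript length. The coefficient of variation between the WT libraries was lowest for Glul, at 4.93%, and highest for Sox9, at 17.1%, and Gfap, at 16.5%. Gfap was highest in WT replicate 3, at 607 CPM, against 449 and 477 CPM in replicates 1 and 2, while the other 9 genes had their lowest value there, or for Aqp4 the middle one. Sox9 ran the other way, at 68.8, 57.5 and 48.8 CPM.

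**Figure D1:**
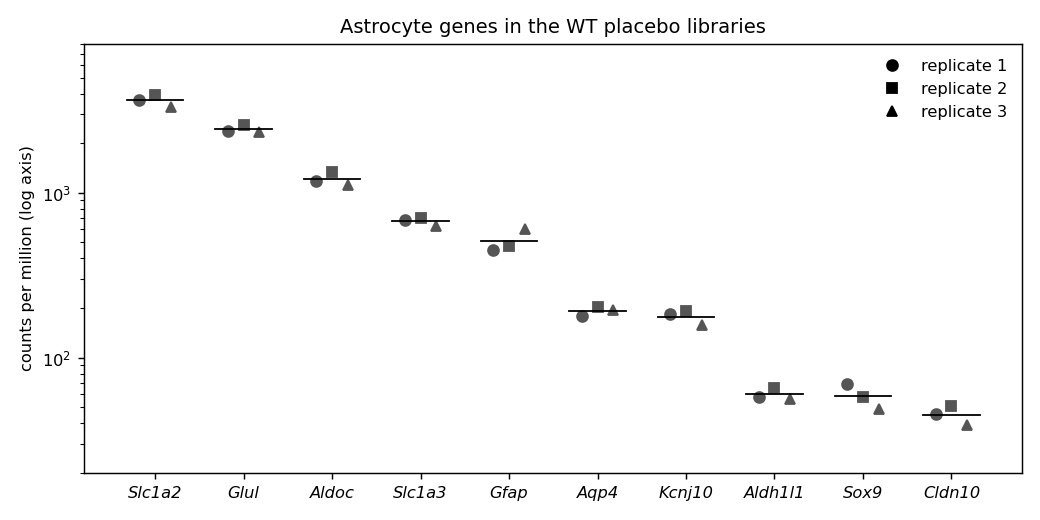
CPM (log axis) of the 10 astrocyte genes in the 3 WT placebo libraries, with the symbol giving the replicate and the line the mean. Means run from 3641 CPM for Slc1a2 to 45.2 CPM for Cldn10, and Gfap is the gene whose replicate 3 stands clearly above the other two.

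As deposited, scaled per length on the log2(FPKM + 1) scale, the order of levels in the TG placebo libraries was Glul (mean 9.84), Aldoc (8.90), Slc1a2 (8.24), Slc1a3 (7.30), Gfap (7.28), Cldn10 (5.40), Kcnj10 (4.77), Aqp4 (4.72), Aldh1l1 (4.31) and Sox9 (3.82). The ranges of Slc1a3 and Gfap overlapped, as did those of Kcnj10 and Aqp4, and the other neighbours in this order did not. Dividing 3' end reads by length lowers long transcripts, so this order depends on that scaling. By WT CPM, not scaled by length, Slc1a2 came first and Cldn10 last. In the NM-101 libraries Gfap (7.89) stood above Slc1a3 (7.58) with no overlap, and the ranges of Kcnj10, Aqp4, Aldh1l1 and Sox9 each overlapped with the next.

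The first question was how the NM-101 and placebo libraries of TG mice differed. All 10 genes had a higher mean under NM-101, by 0.26 to 0.77 on the log2 scale, with a median difference of 0.44. Over all 12699 genes the median difference was 0.03, and 55.5% of genes had a positive one. Sox9 was higher under NM-101 and was the only one of the 10 past the threshold. That threshold was an adjusted p under 0.05 in limma with Benjamini-Hochberg adjustment over all genes. Over all genes, 0.102% passed in that direction and 0.0315% as lower. For 6 of the 10 genes (Sox9, Slc1a2, Glul, Cldn10, Aldoc and Aldh1l1) each NM-101 library lay above every TG placebo library, where 13.6% of all genes did so and 5.98% lay lower without overlap. At an unadjusted p under 0.05, 8 of the 10 were higher, against 10.7% of all genes. The 10 genes were measured in the same libraries, so these counts are not 10 independent measurements.

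**Figure D2:**
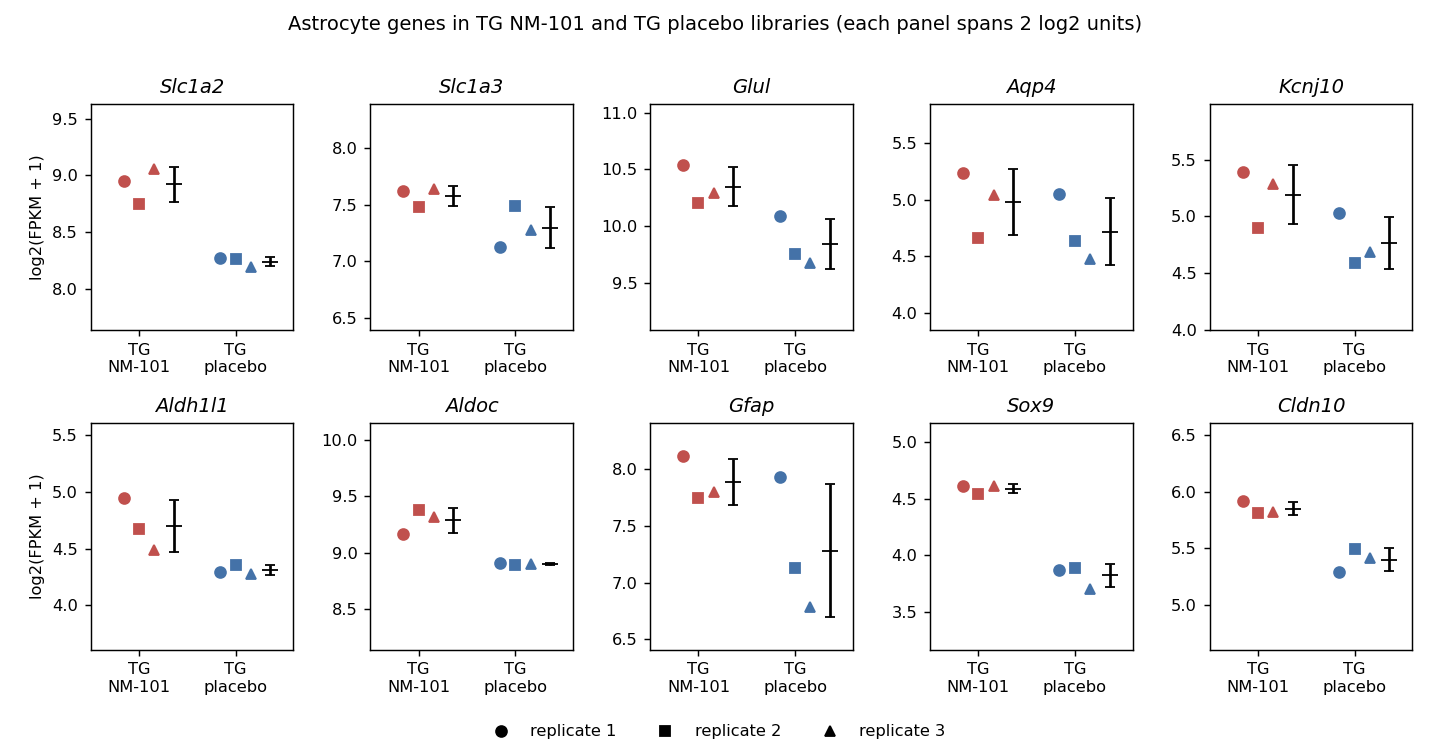
Levels on the log2(FPKM + 1) scale in the TG NM-101 (left, red) and TG placebo (right, blue) libraries, with the symbol giving the replicate and the bar the mean ± SD of 3 libraries. Sox9 and Slc1a2 show the widest gaps between groups, and for Gfap and Aqp4 TG placebo replicate 1 lies among the NM-101 libraries.

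Sox9 (gene ID 20682) spans chr11:112782210-112787757 in GRCm38 and has 1 transcript in the table. It stood at 4.62, 4.54 and 4.61 in the NM-101 libraries, against 3.88, 3.89 and 3.70 in the TG placebo libraries. The groups did not overlap and lay 0.65 apart at the nearest. The difference was 0.77 ± 0.10 (SE), a 1.70-fold change on the scale of FPKM + 1, with a limma adjusted p of 0.0425. The call held with a pseudocount of 0.1 or 5 and without TG placebo replicate 1, and was lost under the 11 other alternatives. These include leaving out any of the other 5 libraries, TG placebo replicate 2 (limma adjusted p = 0.179) or 3 (0.0942) or NM-101 replicate 1 (0.101), 2 (0.181) or 3 (0.351), although the difference stayed between 0.63 and 0.81 throughout. The related factors Sox8 and Sox10, which with Sox9 form the SoxE group and mark the oligodendrocyte lineage more than astrocytes, did not pass. Sox8 averaged 4.09 ± 0.31 under NM-101 and 4.17 ± 0.06 under TG placebo, and Sox10 averaged 3.87 ± 0.17 under NM-101 and 3.78 ± 0.12 under TG placebo (SD, n = 3 each).

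**Figure D3:**
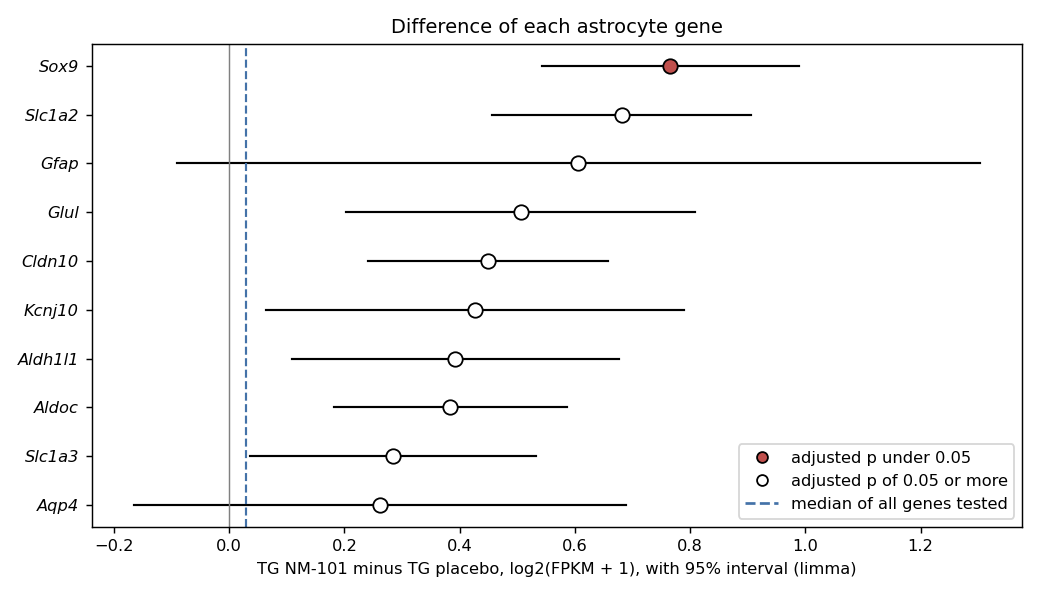
Difference of each gene, TG NM-101 minus TG placebo, on the log2(FPKM + 1) scale with its 95% interval from limma. The filled point is Sox9, the gene past the threshold, the dashed line is the median of all genes tested (0.03), and the intervals of Gfap and Aqp4 include 0.

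Glutamate uptake and its conversion came next. Slc1a2 stood at 8.95, 8.75 and 9.06 in the NM-101 libraries, against 8.27, 8.26 and 8.19 in the TG placebo libraries. The 3 placebo values lay close together and below every NM-101 value. The difference of 0.68 ± 0.10 (SE) had a limma adjusted p of 0.0561, just outside the threshold. Glul stood at 10.54, 10.21 and 10.29 under NM-101, against 10.09, 9.75 and 9.68 under TG placebo. TG placebo replicate 1 came within 0.12 of the lowest NM-101 library, and the difference of 0.51 ± 0.13 (SE) had a limma adjusted p of 0.149. Slc1a3 stood at 7.62, 7.48 and 7.64 under NM-101, against 7.13, 7.49 and 7.28 under TG placebo, so that TG placebo replicate 2 reached the NM-101 range. Its difference was 0.28 ± 0.11 (SE), with a limma adjusted p of 0.283. The 3 genes lie at chr2:102658239-102790784, chr1:153899929-153909723 and chr15:8634124-8710807.

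The Slc1a2 value is a sum over 3 transcripts that did not contribute alike. Transcript NM_001077514 stood at 7.73, 7.05 and 8.19 in the NM-101 libraries, against 6.79, 6.47 and 5.90 in the TG placebo libraries, a difference of 1.27 ± 0.33 (SE; limma adjusted p over all transcripts = 0.242). Transcript NM_001077515 stood at 8.11, 8.20 and 7.86, against 7.61, 7.75 and 7.85 in the TG placebo libraries, a difference of 0.32 ± 0.11 (SE; limma adjusted p = 0.342). The groups did not overlap for either, but for NM_001077515 NM-101 replicate 3 was barely above TG placebo replicate 3. Of the gene's summed FPKM, NM_001077514 made up 43.6% under NM-101 and 28.4% under TG placebo. The log2 ratio of NM_001077514 to NM_001077515 was -0.38, -1.16 and 0.33 under NM-101 and -0.82, -1.29 and -1.96 under TG placebo. These groups overlap, and a two-sided exact permutation test gave p = 0.2, where 0.1 is the smallest p that 3 libraries against 3 allow. The pair was picked after its values were seen. In WT libraries NM_001077515 held 82.0% of the counts of the gene and NM_001077514 17.8%. These are shares of counts not scaled by length, so they cannot be compared with the FPKM shares of the TG groups. The third transcript, NM_011393, was low, at 2.97 ± 0.25 under NM-101 and 2.02 ± 0.34 under TG placebo (SD, n = 3 each), and held 0.14% of the WT counts. How reads that fit several transcripts were assigned is not given in the sources used here, so the split between transcripts is uncertain. Each transcript is scaled by its own length before summing, so the summed FPKM of the gene depends on that split too.

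**Figure D4:**
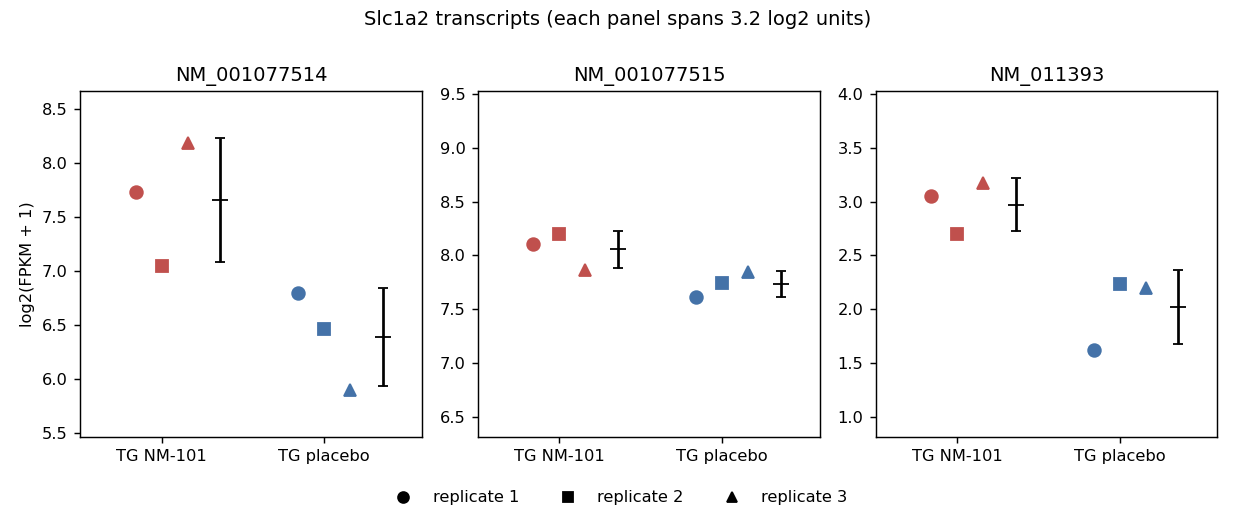
The 3 Slc1a2 transcripts on the log2(FPKM + 1) scale in TG NM-101 (left, red) and TG placebo (right, blue) libraries, with the mean ± SD of 3 libraries. NM_001077514 has the wider gap between groups (1.27) and the wider spread, and NM_001077515 a gap of 0.32.

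The gene models matched to these transcripts also differ in where they begin and end. These models are 11595 bases long for NM_001077514 and 1957 for NM_001077515. Equal levels in WT and TG libraries would need 4304 and 12521 bases. The positions below may thus not be those of the transcripts measured. In GENCODE M21, also on GRCm38, the model matched to NM_001077514 runs from 102658659 to 102790784 on the plus strand of chromosome 2. The models of NM_001077515 and NM_011393 both begin at 102706438, inside the gene, and end at 102781743 and 102778106. The start that those models share is shown here because it is the one for which RefSeq gives a window, from 250 bases before the start to 50 after it (chr2:102706188-102706487, plus strand), with CpG dinucleotides in capitals.
Slc1a2 inner start: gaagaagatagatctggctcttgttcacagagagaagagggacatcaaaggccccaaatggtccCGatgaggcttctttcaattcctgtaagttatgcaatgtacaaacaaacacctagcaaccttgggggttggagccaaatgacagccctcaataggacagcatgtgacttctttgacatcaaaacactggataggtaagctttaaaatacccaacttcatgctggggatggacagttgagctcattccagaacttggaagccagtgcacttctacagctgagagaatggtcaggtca
This window holds 1 CpG, against a median of 7 over the 32851 windows of the RefSeq table.

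Cldn10 was read through 1 transcript almost alone. Of its 6 transcripts in the table, NM_021386 held all WT counts (484, 716 and 458) and at least 99.9% of the summed FPKM in the TG groups. The others were at 0 in each library except NM_001160096, at 0.22 in NM-101 replicate 1. The model matched to NM_021386 begins at 118854732 and ends at 118875489 on the plus strand of chromosome 14. Those matched to the upstream transcripts begin at 118787908 or 118787918 and end at 118874524 or 118874525. A kit that reads the 3' end separates them by their ends and not by their starts. NM_001160099 is matched to the same model as NM_021386 and was at 0, so the split between these 2 cannot be taken as measured. The windows of both starts are printed, in capitals the CpG dinucleotides, to show how the sequence differs between the RefSeq start nearest the detected model, at 118854950, and the upstream start (chr14:118854700-118854999 and chr14:118787621-118787920, plus strand, GRCm38).
Cldn10 downstream start: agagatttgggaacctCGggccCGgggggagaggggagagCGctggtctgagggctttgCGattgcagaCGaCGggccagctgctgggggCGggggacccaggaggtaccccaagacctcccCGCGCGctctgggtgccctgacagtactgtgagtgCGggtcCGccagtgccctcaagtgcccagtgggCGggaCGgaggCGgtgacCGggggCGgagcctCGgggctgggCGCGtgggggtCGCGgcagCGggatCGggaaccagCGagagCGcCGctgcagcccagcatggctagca
Cldn10 upstream start: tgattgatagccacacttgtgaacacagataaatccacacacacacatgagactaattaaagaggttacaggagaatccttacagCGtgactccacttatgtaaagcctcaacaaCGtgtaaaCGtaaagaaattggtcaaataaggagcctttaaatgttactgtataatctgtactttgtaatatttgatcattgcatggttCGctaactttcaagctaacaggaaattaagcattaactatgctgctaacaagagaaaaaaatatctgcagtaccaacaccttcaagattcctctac
The downstream window has 27 CpGs and 72.0% G or C, more CpGs than 84.5% of all windows. The upstream window has 4 CpGs, more than 31.4% of all windows. As a gene, Cldn10 stood at 5.92, 5.81 and 5.82 in the NM-101 libraries, against 5.29, 5.49 and 5.42 in the TG placebo libraries. The groups did not overlap and lay 0.32 apart at the nearest. The difference of 0.45 ± 0.09 (SE) had a limma adjusted p of 0.0958. Other claudins were Cldn5, of endothelium, at 3.98 ± 0.37 under NM-101 and 4.03 ± 0.62 under TG placebo, and Cldn11, of myelin, at 6.35 ± 0.46 under NM-101 and 6.28 ± 0.87 under TG placebo (SD, n = 3 each), and neither passed.

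Of the metabolic markers, Aldoc varied little within groups and Aldh1l1 varied more under NM-101. Aldoc stood at 9.16, 9.38 and 9.31 under NM-101, against 8.91, 8.89 and 8.90 under TG placebo, where the SD was 0.01. The difference of 0.38 ± 0.09 (SE) had a limma adjusted p of 0.117. Aldoc has 2 transcripts, and NM_001303423 made up 93.6% of the summed FPKM in both TG groups and 91.1% of the WT counts. The windows of the RefSeq starts nearest its model and nearest that of the minor transcript NM_009657 are given, with CpGs in capitals, since the difference was the same for both, 0.38 and 0.38 (chr11:78322823-78323122 and chr11:78323948-78324247, plus strand, GRCm38).
Aldoc first start: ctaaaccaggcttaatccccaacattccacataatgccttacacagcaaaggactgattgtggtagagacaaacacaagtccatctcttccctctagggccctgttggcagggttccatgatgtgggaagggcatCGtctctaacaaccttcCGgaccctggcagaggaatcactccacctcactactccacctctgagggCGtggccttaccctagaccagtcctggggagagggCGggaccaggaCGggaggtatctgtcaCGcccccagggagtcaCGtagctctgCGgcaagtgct
Aldoc second start: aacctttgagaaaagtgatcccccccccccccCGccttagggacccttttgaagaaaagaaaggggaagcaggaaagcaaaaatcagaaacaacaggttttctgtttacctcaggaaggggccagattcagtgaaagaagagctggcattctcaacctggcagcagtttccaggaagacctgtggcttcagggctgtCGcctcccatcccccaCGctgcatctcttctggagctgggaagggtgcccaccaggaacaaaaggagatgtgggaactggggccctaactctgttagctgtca
They hold 8 and 3 CpGs. Aldoa, the aldolase found in most cells, averaged 10.41 ± 0.14 under NM-101 and 10.55 ± 0.06 under TG placebo (SD, n = 3 each; limma adjusted p = 0.520). Aldh1l1 stood at 4.95, 4.67 and 4.49 under NM-101, against 4.30, 4.36 and 4.28 under TG placebo. No placebo library reached the lowest NM-101 library, and the difference of 0.39 ± 0.13 (SE) had a limma adjusted p of 0.217. Its mitochondrial relative Aldh1l2 was below the level tested, at 0.70 ± 0.06 under NM-101 and 0.92 ± 0.26 under TG placebo (SD, n = 3 each).

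Gfap and the channels overlapped between groups through TG placebo replicate 1. Gfap stood at 8.12, 7.75 and 7.80 under NM-101, against 7.94, 7.13 and 6.79 under TG placebo. Replicate 1 was 0.05 above the NM-101 mean, and replicates 2 and 3 were 0.76 and 1.10 below it. The difference of 0.61 ± 0.29 (SE) had a limma adjusted p of 0.387. Aqp4 stood at 5.24, 4.66 and 5.04 under NM-101, against 5.05, 4.64 and 4.47 under TG placebo, and its difference of 0.26 ± 0.19 (SE) had a limma adjusted p of 0.526. Kcnj10 stood at 5.39, 4.90 and 5.29 under NM-101, against 5.03, 4.59 and 4.69 under TG placebo, a difference of 0.43 ± 0.16 (SE; limma adjusted p = 0.276). Kcnj16 (Kir5.1), with which Kcnj10 forms mixed channels, averaged 3.65 ± 0.09 under NM-101 and 3.36 ± 0.25 under TG placebo (SD, n = 3 each; limma adjusted p = 0.376). The 2 Gfap transcripts had like differences, 0.61 for NM_010277, which held 94.7% of the WT counts, and 0.49 for NM_001131020. For Aqp4, NM_009700 made up 92.2% of the summed FPKM under NM-101 and 93.0% under TG placebo.

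Libraries differed across the 10 genes together. NM-101 replicate 2 was the lowest of its group for 8 of the 10 genes and NM-101 replicate 1 the highest for 7. In the TG placebo group, replicate 1 was the highest for 6 genes and replicate 3 the lowest for 6. Without TG placebo replicate 1, 7 of the 10 genes were called higher by limma, among them Gfap at 0.93 (adjusted p = 0.00305) and Glul at 0.63 (adjusted p = 0.00771), but so were 9.69% of all genes, and another 8.17% were called lower. Slc1a2, at 0.69 without that library, had an adjusted p of 0.00369 in the same limma fit. Without any of the other 5 libraries, 0 of the 10 were called, with 6 to 8 at an unadjusted p under 0.05 in limma. In those fits 758 to 1222 of all 12699 genes were higher at that p, and 211 to 469 were lower.

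TG placebo replicate 1 stood apart in lists of other cell types too. The summed level of 12 oligodendrocyte markers was 11.88, 11.01 and 11.44 under NM-101, and 12.27, 10.68 and 10.62 under TG placebo, on the scale of log2(summed FPKM + 1). That of 10 ependymal and choroid plexus markers was 6.65, 10.08 and 6.71 under NM-101, and 12.18, 4.27 and 4.78 under TG placebo. Where it was high, this sum was mostly Ttr, at 12.14 in TG placebo replicate 1 and 9.998 in NM-101 replicate 2. It therefore says little of the other markers of that list. The median level of the 10 markers, which rests less on Ttr, also set TG placebo replicate 1 apart. It was 2.62, 2.79 and 2.18 under NM-101, and 4.12, 0.77 and 0.92 under TG placebo. The summed level of 8 nuclear-retained RNAs, such as Malat1 and Meg3, was 8.78, 8.75 and 8.45 under NM-101, against 7.88, 10.20 and 10.47 under TG placebo. Microglial markers (12 of 12 detected) summed to between 8.63 and 8.64 under NM-101 and between 8.25 and 8.37 under TG placebo. Of these 12, 10 had a positive difference, against 55.5% of all genes, with a median of 0.32. At an unadjusted p under 0.05 in limma 7 were higher and 0 lower, against 10.7% and 4.17% of all genes. For 5 the groups did not overlap, all higher, against 13.6% of all genes. Endothelial and mural markers (12 of 12 detected) summed to between 6.49 and 6.71 under NM-101 and between 6.62 and 7.14 under TG placebo. Of these, 0 had a positive difference, the median was -0.29, and 3 were lower at that p. The summed level of the 10 astrocyte genes was 11.65, 11.46 and 11.56 under NM-101, against 11.23, 11.03 and 10.94 under TG placebo. The part of these lists in the differences above was not tested.

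**Figure D5:**
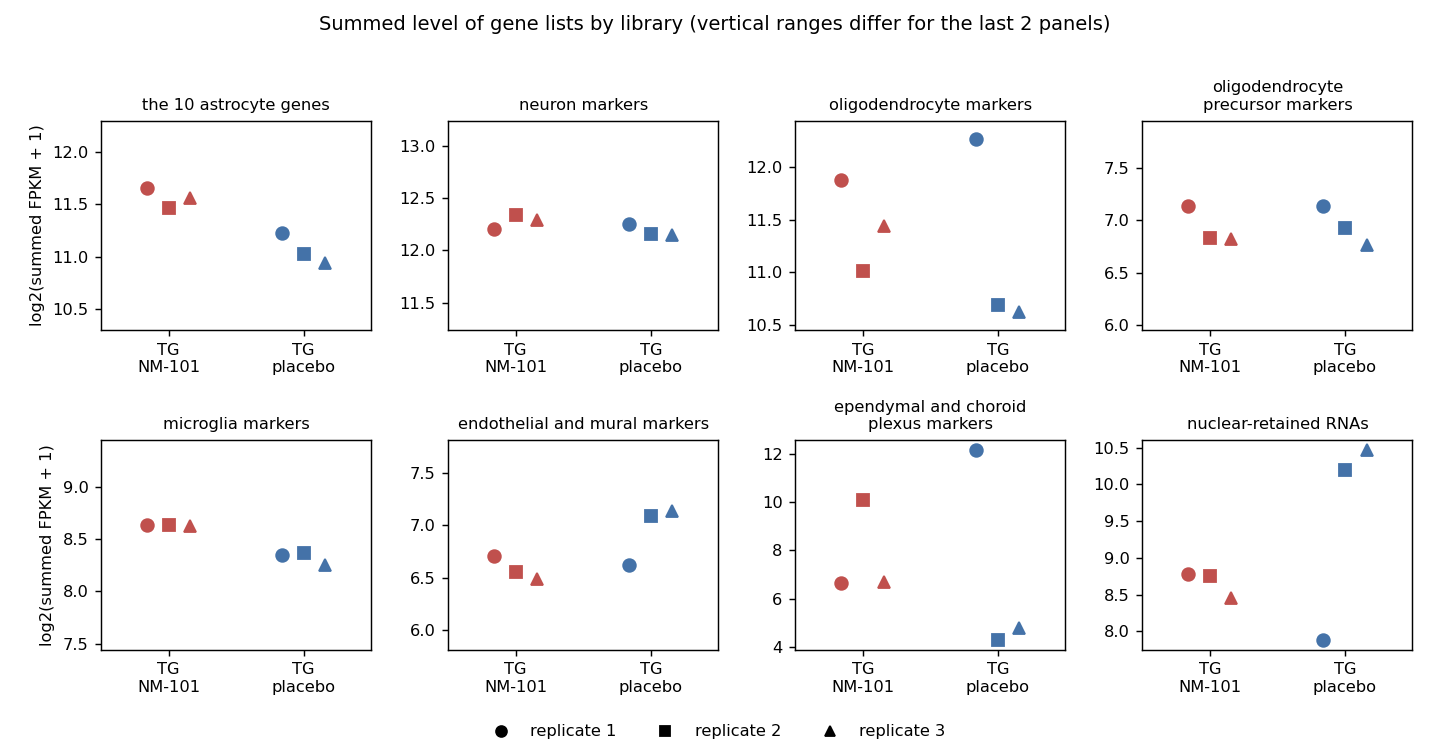
Summed level of each list, as log2(summed FPKM + 1), in TG NM-101 (left, red) and TG placebo (right, blue) libraries, with the symbol giving the replicate. The astrocyte and microglial sums are higher in each NM-101 library, while oligodendrocyte, choroid plexus and nuclear RNA sums set TG placebo replicate 1 apart from replicates 2 and 3.

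A wider list of 50 other astrocyte genes gave 0 calls in limma in either direction, while an unadjusted p under 0.05 was found for 18 that were higher and 1 that was lower, where 10.7% of all genes were higher and 4.17% lower at that p. Of the 50, 40 had a positive difference, as 55.5% of all genes did, the median was 0.20, and the groups did not overlap for 17, all higher in NM-101 (34.0%, against 13.6% of all genes). The smallest p-values among those higher were for Sox2, a factor of neural progenitors and glia (0.57, limma adjusted p = 0.0882), Ndrg2 (0.49, adjusted p = 0.0995) and Pla2g7 (0.40, adjusted p = 0.104). Among those lower they were for Slc7a10, a transporter of small amino acids (-0.33, limma adjusted p = 0.336), Btbd17 (-0.17, adjusted p = 0.555) and the GABA transporter Slc6a11 (-0.13, adjusted p = 0.565). Without TG placebo replicate 1, 15 of the 50 were called higher and 1 lower, where 9.69% of all genes were called higher and 8.17% lower.

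Lists around the roles of the 10 genes gave 0 calls in limma as well. At an unadjusted p under 0.05 there was 1 gene higher among partners of the glutamate cycle, 2 among endfoot partners, 1 among relatives and 1 among reactive genes. There was 1 higher and 1 lower among genes of folate and serine, and 2 were lower in glycolysis. Over all genes, 10.7% were higher and 4.17% lower at that p. Without TG placebo replicate 1 limma called 1 glutamate cycle partner higher, 2 endfoot partners higher and 2 lower, and 2 relatives higher and 1 lower. In that fit 2 folate and serine genes were called higher and 2 lower, 2 reactive genes higher and 0 glycolysis genes. The same fit called 9.69% of all genes higher and 8.17% lower. Of 13 tested partners of the glutamate and glutamine cycle, 7 were higher and the median was 0.06. Of all genes, 55.5% had a positive difference. Glud1, glutamate dehydrogenase, differed by 0.30 (limma adjusted p = 0.169) and Slc38a3, which carries glutamine out of astrocytes, by -0.27 (adjusted p = 0.358). Slc38a3 stood at 3.92, 4.00 and 3.84 under NM-101, against 4.43, 4.06 and 4.07 under TG placebo, so it lay lower without overlap, the opposite side from Slc1a2 and Glul. The neuronal glutamate transporter Slc1a1 averaged 5.12 ± 0.09 under NM-101 and 5.27 ± 0.12 under TG placebo (SD, n = 3 each; limma adjusted p = 0.499). Of 11 tested endfoot and volume regulation partners, 6 were higher, with a median of 0.21, Mlc1 at 0.33 (limma adjusted p = 0.147) and Gpr37l1 at 0.27 (adjusted p = 0.217). The widest difference of that list was on the lower side, at -0.62 for Agrn (agrin, a matrix proteoglycan), which was named after its values were seen and did not pass. Agrn stood at 3.56, 3.54 and 3.385 under NM-101, against 3.31, 4.53 and 4.51 under TG placebo. The groups overlapped, as TG placebo replicate 1 lay below every NM-101 library. Among 17 tested relatives of the same gene families 7 were higher, with a median of -0.04. Vim, the filament protein that assembles with Gfap, differed most by p in that list, at 0.61 (limma adjusted p = 0.150).

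Of 17 tested genes of folate and serine metabolism 5 were higher, with a median of -0.04, where 55.5% of all genes were higher. Psph, the last enzyme of serine synthesis, was at 0.37 (limma adjusted p = 0.217) and Tyms, thymidylate synthase, at -0.57 (adjusted p = 0.307). Of 22 tested genes of glycolysis and glycogen 12 were higher, with a median of 0.01. Pfkp was at -0.21 (limma adjusted p = 0.312) and Eno1 at -0.28 (adjusted p = 0.314). Of 38 genes named in the field for reactive astrocytes only 20 reached the level tested, and 16 of them were higher, with a median of 0.12. Besides Vim, Psmb8 had the smallest p there, at 0.32 (limma adjusted p = 0.398). Serpina3n, an acute-phase inhibitor often used as the marker of reactive astrocytes, stood at 4.22, 4.50 and 3.88 under NM-101 and averaged 4.09 ± 0.39 under TG placebo (SD, n = 3), and Lcn2 was at 0.24 ± 0.07 under NM-101 and 0.41 ± 0.31 under TG placebo, below the level tested. C3, also below the level tested, was higher in each NM-101 library than in any TG placebo library. It stood at 0.91, 0.69 and 0.71 under NM-101, against 0.42, 0.18 and 0.045 under TG placebo. Serpina3n, Lcn2 and C3 were picked with their levels already known.

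The pattern of the 10 genes across the 6 TG libraries, averaged after centring each gene, was 0.36, 0.12 and 0.24 under NM-101 and -0.11, -0.25 and -0.36 under TG placebo. Among 7382 other genes, those most alike by Pearson's r over these 6 libraries included Zdhhc2 (0.995), Sec22b (0.994), Mindy2 (0.993) and Fez1 (0.993). Of the genes compared, 5.39% had an r over 0.9. None of these 4 passed the limma threshold, with differences from 0.13 for Fez1 to 0.81 for Zdhhc2 (limma adjusted p = 0.0811).

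For the comparisons with WT, WT counts were divided by library total and transcript length and written as log2(RPKM + 1). These levels are set across columns normalized separately, so nothing was tested. A wrong transcript length shifts a gene by the same amount in every WT library and cannot be told apart from a difference. Slc1a2 is left out because the models matched to its main transcripts are 1957 and 11595 bases long, while its WT CPM over TG FPKM would need 12521 and 4304 bases to give equal levels. For TG placebo against WT placebo the question was the genotype. The median difference over the 9 genes was -0.05, against 0.05 over 12426 genes, whose quartiles were -0.15 and 0.27. For 7 of the 9 the groups overlapped. Sox9 stood at 3.88, 3.89 and 3.70 in TG placebo libraries and 4.14, 3.899 and 3.68 in WT libraries, and Aldoc at 8.91, 8.89 and 8.90 in TG placebo and 8.81, 9.00 and 8.74 in WT. Gfap stood at 7.94, 7.13 and 6.79 in TG placebo and 7.41, 7.501 and 7.85 in WT. The 1 gene above every WT library was Cldn10 (mean difference 0.94) and the 1 gene below was Aqp4 (-0.74), where 20.8% and 15.9% of all genes lay above or below without overlap.

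TG NM-101 against WT placebo asked how the TG mice given NM-101 stood relative to WT mice given placebo. The median difference over the 9 genes was 0.34, against 0.05 over all genes. Sox9, at 4.62, 4.54 and 4.61 in NM-101 libraries, lay above each WT library, with a mean difference of 0.68. Glul stood at 10.54, 10.21 and 10.29 in NM-101 and at 9.74, 9.85 and 9.72 in WT, a difference of 0.58. Aldoc (0.44) and Slc1a3 (0.24) also lay above every WT library, as did Cldn10 (1.38), which made 5 of 9 genes where 23.5% of all genes did so. Aqp4 lay below every WT library (-0.48), as 13.1% of all genes did. Kcnj10, Aldh1l1 and Gfap overlapped. Cldn10 and Aqp4 held the same side of WT in both TG groups, as a mismatch of length would also give. The model used for Cldn10 is 2128 bases long and would have to be 922 for equal levels over the 6 TG libraries, and that of the main Aqp4 transcript is 5054 and would have to be 7003.

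RefSeq gives start windows for 8 of the 10 genes, 10 windows in all. They were searched on both strands for the CCAAT box (CCAAT) and for a core that SOX proteins bind (ACAAAG or ACAATG), 2 motifs that cannot overlap. The CCAAT box was found in 5 of the 10 windows, against 37.4% of all windows, and the SOX core in 2 (Kcnj10 and the upstream window of Cldn10), against 28.6%. A match is a description of letters in these windows and no site.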

How the data were processed

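RNA from 9 mouse brain samples was read as 1 table of 33299 RefSeq transcripts. Libraries were QuantSeq, from RNA of an FFPE kit, per the labels' protocols. Bowtie2 and mm10 stand in the submitters' processing notes. Which counter and which annotation were used is not given in the sources used here. Columns of WT samples hold counts as deposited. The TG columns hold log2 values as deposited by the authors, although the file name speaks of raw counts. They were read as log2(FPKM + 1), because over 13418 transcripts their linear values rose with WT CPM (slope 0.922, log2 scales) and fell with length (slope -0.857). For genes with a single transcript, of 2500 to 6000 bases, 83.2% to 85.6% of low values lay within 0.2 of a whole read at the depth given, where values without steps would give 40%.

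Symbols came from a RefSeq table of GRCm38.p6, which named 32394 transcripts. Lengths came from GENCODE M21. Transcripts were summed per gene on the linear scale and written as log2(value + 1), so the pseudocount was 1. Genes with a mean of at least 1 over the 6 TG samples entered a limma fit (version 3.58.1, R 4.3.3; variance trend, robust shrinkage). Fold changes on this scale understate the change of low genes. The fit was also run on simulated data with known shifts, with each library drawn independently for genes above 0 in all 6 samples. Such data hold no library that stands apart, so they do not show how the calls here behave. The members, the other gene lists and the choice of limma were made with earlier results of these data known. Named genes are the 10 members, list genes past the threshold and those with the smallest p-values in each list, and the 5 genes of most similar pattern, of which 1 is not reported here. Relatives of members are named for their level, and other names were chosen after their values were seen.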

Additional observations from a re-analysis of the deposited data

How the results depend on the processing

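The difference of each of the 10 genes between TG NM-101 and TG placebo kept its positive sign under 14 of 14 alternatives, but the calls depended on the setting. Over all genes limma called 17 (13 higher, 4 lower), and 11 with a pseudocount of 5, 4 with no filter on low values, 0 with only genes above 0 in all 6 samples (1894 at an unadjusted p under 0.05), 4 with median-ratio scaling, 4 with no variance trend and no robust shrinkage, 7 with each transcript fitted on its own and 3 with the replicate block. Same-numbered NM-101 and TG placebo samples did not deviate together (r of 0.05, -0.03 and -0.02 over genes), so the replicate numbers were not taken as pairs. The 4 genes called lower in the main fit, Rnu12, Cmss1, Zc3h7a and Lars2, were at 0 in each NM-101 library. Each stood at 2.72 or above in every TG placebo library, with Lars2 at 12.74, 10.12 and 11.34. Whether the TG groups were quantified alike was not tested. With only genes above 0 in all 6 samples, Sox9 had a limma adjusted p of 0.0594. Without 1 library the count over all genes ran from 2 to 2269, with 2269 without TG placebo replicate 1. Of the 10 genes, 1 was called, against 0 with no filter, with genes above 0 in all samples, with median-ratio scaling, with no trend, with single transcripts and with the replicate block (Sox9 adjusted p = 0.106 in limma), and from 0 to 7 without 1 library. The cause was not tested. Slc1a2 was at 0.32 when its highest transcript was fitted alone, against 0.68 for the sum. Against WT, the median of TG placebo over 9 genes was -0.05, and -0.11 with median-ratio scaling, with values from -0.12 to -0.0105 without 1 library. That of TG NM-101 was 0.34, and 0.22 to 0.42 without 1 library. With 3 samples a group, and TG depth known only from steps, small differences of low genes are not detectable.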
